A study of Mus musculus with 2 samples.

Results

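The regions described here are the chromatin accessibility peaks that lay inside very long genes of the embryonic mouse striatum. A peak was a member when it lay wholly inside a protein-coding RefSeq gene span of 500 kb or more and more than 1 kb from both ends of that gene. The rule used gene annotation and peak position only. It found 5412 of the 87174 deposited peaks, 6.21%, in 227 genes. The study profiled nuclei of wild-type (WT) striatum at the embryonic stage E14.5, named by days of gestation, by single-nucleus ATAC-seq on the 10x Genomics Chromium platform, an assay in which a transposase cuts and tags open chromatin. Both libraries came from mice with a C57BL/6J and CD1 strain background. They form 1 group, with no treated, mutant or control samples. Whether the libraries came from separate embryos, how many embryos were pooled and the sex of the embryos are not given in the sources used here.

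The deposited file is a single list of peak positions for the whole series, with no read counts, no scores and no column for either library. Depth, signal strength and the spread between libraries are therefore unknown, and no test between conditions was possible. Each density below is a number of peaks divided by the length of gene interior searched. Its 95% interval is an exact Poisson interval that covers counting error only and treats peaks as independent, which neighbouring peaks may not be. The peaks pool all cell types of the tissue, so a peak used by few cells and a peak used by all cells count alike. As a check of the tissue label, a peak lay at a gene end of 12 of 12 forebrain genes, among them Dlx1, Gad1, Isl1 and Six3. A peak also lay at an end of 1 of 8 genes of other organs, the apolipoprotein gene Apoa1. Such peaks were common, at 1848 of 2200 protein-coding genes of 100 to 500 kb (84%). The 12 forebrain genes on their own therefore say little about the tissue.

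Most of the length of such genes is intron. Introns can hold enhancers, which are short stretches bound by transcription factors, and second promoters from which shorter transcripts start. Many of the longest mammalian genes encode adhesion proteins, receptors and scaffolds of synapses, and others encode transcription factors that pattern the embryonic forebrain.

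Promoter sequences are shown for genes at both ends of the range of peak density, because several of them carried a peak at a start of transcription and nothing or little around it. Each is the 300 bases from 250 before to 50 after a RefSeq start, in GRCm38.p6 (mm10), written 5′ to 3′ on the strand of the gene. Capitals mark CpG dinucleotides, which are crowded in the promoters known as CpG islands. The first pair come from starts deep inside the densely marked genes Foxp1 (chr6:99028249-99028548, minus strand) and Zfhx3 (chr8:108714394-108714693, plus strand).
Foxp1 internal start: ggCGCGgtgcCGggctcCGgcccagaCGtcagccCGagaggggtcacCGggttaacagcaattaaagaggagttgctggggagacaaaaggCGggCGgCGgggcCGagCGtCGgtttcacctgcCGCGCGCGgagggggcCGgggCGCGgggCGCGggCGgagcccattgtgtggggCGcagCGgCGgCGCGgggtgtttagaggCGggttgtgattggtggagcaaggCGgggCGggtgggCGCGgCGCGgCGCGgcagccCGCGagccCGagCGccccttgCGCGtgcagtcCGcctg
Zfhx3 internal start: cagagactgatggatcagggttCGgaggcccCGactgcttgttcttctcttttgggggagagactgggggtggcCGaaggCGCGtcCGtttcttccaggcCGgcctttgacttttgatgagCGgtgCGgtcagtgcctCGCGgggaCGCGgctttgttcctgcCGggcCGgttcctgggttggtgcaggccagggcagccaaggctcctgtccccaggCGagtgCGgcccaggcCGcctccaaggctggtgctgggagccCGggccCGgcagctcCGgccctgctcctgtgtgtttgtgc
The next 3 are the outer starts of the genes that had no interior peak at all, Il1rapl2 (chrX:137570504-137570803, plus strand), Zfp804b (chr5:7344329-7344628, minus strand) and Skint5 (chr4:113999454-113999753, minus strand).
Il1rapl2 outer start: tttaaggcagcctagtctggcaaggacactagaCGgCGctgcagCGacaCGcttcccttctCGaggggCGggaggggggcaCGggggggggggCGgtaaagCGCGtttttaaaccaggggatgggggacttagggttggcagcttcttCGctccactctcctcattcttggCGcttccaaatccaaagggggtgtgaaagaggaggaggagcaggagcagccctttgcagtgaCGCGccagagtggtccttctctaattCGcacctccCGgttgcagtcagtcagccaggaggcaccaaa
Zfp804b outer start: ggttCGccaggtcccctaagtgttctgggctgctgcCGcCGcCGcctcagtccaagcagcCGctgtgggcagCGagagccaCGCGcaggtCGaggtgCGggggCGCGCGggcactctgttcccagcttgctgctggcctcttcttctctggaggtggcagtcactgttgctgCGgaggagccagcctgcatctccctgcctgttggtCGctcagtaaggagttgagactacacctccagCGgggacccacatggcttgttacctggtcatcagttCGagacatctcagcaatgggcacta
Skint5 outer start: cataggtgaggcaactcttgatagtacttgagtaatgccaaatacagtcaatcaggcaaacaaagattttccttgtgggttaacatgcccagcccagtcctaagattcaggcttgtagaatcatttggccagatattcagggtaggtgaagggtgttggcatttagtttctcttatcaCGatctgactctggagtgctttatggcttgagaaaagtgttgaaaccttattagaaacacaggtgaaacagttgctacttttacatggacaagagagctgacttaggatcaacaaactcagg
The last pair are internal starts of the dystrophin gene Dmd, 1 under a peak (chrX:85048045-85048344, plus strand) and 1 without a peak (chrX:82948620-82948919, plus strand).
Dmd internal start under a peak: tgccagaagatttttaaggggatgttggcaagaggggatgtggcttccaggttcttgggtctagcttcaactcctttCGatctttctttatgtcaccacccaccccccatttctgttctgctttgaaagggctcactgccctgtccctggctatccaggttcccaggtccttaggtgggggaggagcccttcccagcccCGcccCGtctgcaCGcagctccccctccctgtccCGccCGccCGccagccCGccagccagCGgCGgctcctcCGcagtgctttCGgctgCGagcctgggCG
Dmd internal start without a peak: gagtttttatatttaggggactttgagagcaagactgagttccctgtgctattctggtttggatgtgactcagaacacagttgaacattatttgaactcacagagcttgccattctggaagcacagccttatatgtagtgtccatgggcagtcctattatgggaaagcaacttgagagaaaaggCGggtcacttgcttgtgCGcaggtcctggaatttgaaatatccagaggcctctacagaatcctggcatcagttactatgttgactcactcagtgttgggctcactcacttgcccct

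The Foxp1 stretch held 44 CpG dinucleotides at a GC content of 75.3% and lay under a peak of 2250 bp, 494448 bp downstream of the outer start. The Zfhx3 stretch held 21 and lay under a peak of 2188 bp, 435333 bp downstream of the outer start. The outer starts of Il1rapl2 and Zfp804b held 16 and 17 CpG dinucleotides and lay under peaks of 1617 bp and 1379 bp. Skint5, from a gene family of the skin and thymus epithelium, held 1 CpG at its outer start and had no peak there. The Dmd start under a peak of 859 bp held 14 CpG dinucleotides, and the Dmd start without a peak held 2. Il1rapl2, Zfp804b and Skint5 had an interior without a peak, and of these 3 genes Il1rapl2 and Zfp804b had a peak at the outer start.

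The 227 genes together held 2.87 interior peaks per 100 kb (95% interval 2.79 to 2.94), summed over 192 Mb of interior. The median gene had 2.41 per 100 kb. The middle part of the distribution, from the lower to the upper quartile, ran from 1.26 to 4.39, and the whole range from 0 to 11.6 per 100 kb. Peaks covered 1.81% of the interior bases, and 54 genes held 50% of the gene and peak pairs. Shorter genes were denser: the 2200 protein-coding genes of 100 to 500 kb held 4.42 peaks per 100 kb with a median of 3.51. Among the very long genes, the 59 genes of 1 Mb or more held 2.27 per 100 kb, and the 168 genes of 500 kb to 1 Mb held 3.28. Across the 227 genes the rank correlation of gene length with density was weak (Spearman's coefficient -0.13, n = 227, a description over genes that share 1 peak list).

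At the length limit, Edil3, Dock1 and Samd12 lay just inside with spans of 501754, 502961 and 503423 bp and densities of 1.0, 3.59 and 1.2 peaks per 100 kb. Dnm3, Lrrc7 and Cacna1e lay just outside with spans of 495872, 494798 and 493980 bp and densities of 4.86, 1.42 and 5.08. Dnm3 and Cacna1e, outside, were denser than all 3 genes inside.

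A gene was called dense at 5 or more interior peaks per 100 kb and nearly without peaks under 0.5 per 100 kb. There were 47 dense genes of 227 (20.7%), against 765 of 2200 genes of 100 to 500 kb (34.8%). There were 16 genes nearly without peaks (7.05%), against 206 of the genes of 100 to 500 kb (9.36%). For 19 of the 47 dense genes the whole interval lay at 5 or above, and for 1 of the 16 genes nearly without peaks, Il1rapl2, the whole interval lay under 0.5. Asic2 and Csmd2 lay just inside the dense limit at 5.16 and 5.18, and Ctnnd2 and Atrnl1 just below it at 4.91 and 4.8. Sugct and Grm8 lay just inside the lower limit at 0.479 and 0.466, and Sntg1 and Malrd1 just above it at 0.532 and 0.550.

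**Figure D1:**
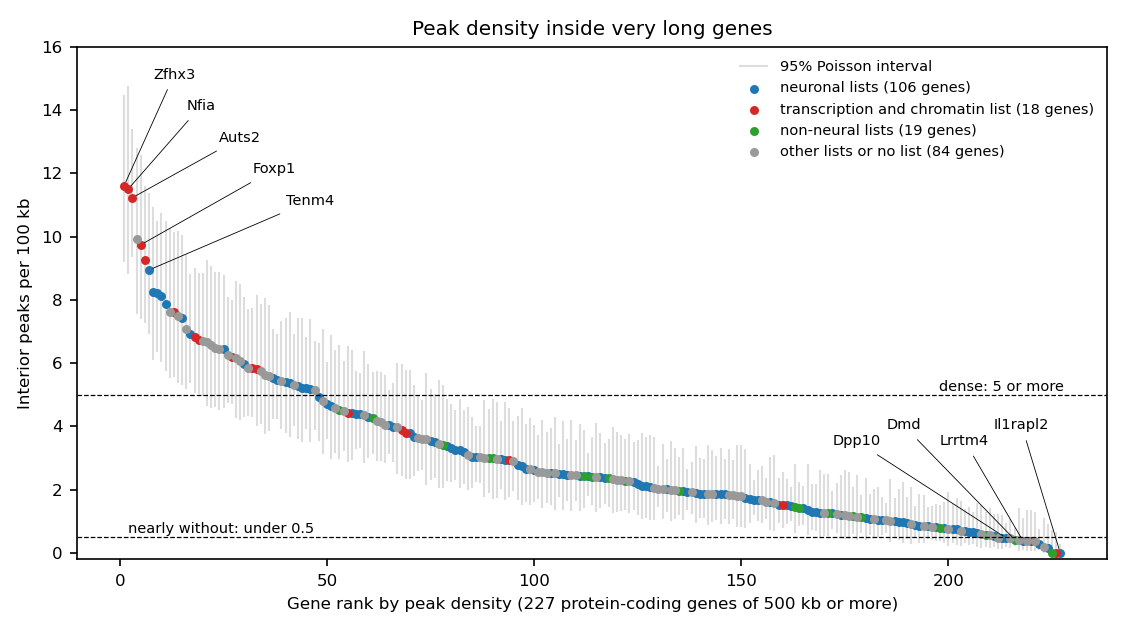
Interior peaks per 100 kb (vertical axis) for the 227 genes in order of density (horizontal axis); points are genes coloured by list, grey bars are 95% Poisson intervals and dashed lines mark the limits of 5 and 0.5. The ranking begins with Zfhx3 at 11.6, and genes of the neuronal lists lie along its whole length, including the 0 of Il1rapl2.

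Of the 10 densest interiors, 5 belonged to genes on the transcription and chromatin list. Zfhx3, a zinc finger homeodomain transcription factor (chr8:108279311-108961636), held 79 peaks, 11.6 per 100 kb, with a lower bound of 9.19. Up to 25 of them fell within a single window of 100 kb. Nfia, a nuclear factor I protein of neural progenitors and glia, held 62 peaks (11.5 per 100 kb). Auts2, a regulator of neuronal gene activity and of the cytoskeleton (chr5:131437333-132543220), held 124 peaks (11.2 per 100 kb), the highest number in any of the 227 genes. Foxp1, a forkhead factor of striatal projection neurons, held 58 (9.74 per 100 kb), and Camta1, a calmodulin-binding transcription activator, held 74 (9.25 per 100 kb). The other genes among the 10 densest were Frmd4a, a scaffold of cell polarity, at 9.93, Tenm4, a teneurin adhesion protein, at 8.94, Dscam, an immunoglobulin adhesion protein, at 8.25, Ptprn2, a phosphatase-like protein of dense-core vesicles, at 8.22, and Kalrn, a guanine nucleotide exchange factor of dendritic spines, at 8.14 per 100 kb. The intervals of these 10 genes overlapped, and differences between them were not tested.

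Of the 18 genes on the transcription and chromatin list, 11 were dense (61.1%), against 20.7% of all 227 genes. The list is not complete, and its values describe the listed genes only. The transcriptional coactivator gene Ppargc1a, at 2.27 per 100 kb, and Aff2, which encodes a nuclear protein, at 1.57, were on no list. Pooled, the list held 6.31 peaks per 100 kb (5.88 to 6.77) with a median of 6.02. Beyond those named above, the dense members were the orphan nuclear receptors Esrrg at 7.61 and Rora at 6.82, Zbtb20 at 6.74, Sox5 at 6.20, and Npas3 and Sox6. Foxp2, a forkhead factor like Foxp1, was lower at 3.90 per 100 kb (2.41 to 5.96) than Foxp1 (7.40 to 12.6), and their intervals did not overlap. At the other end, the zinc finger gene Zfp804b had 0 peaks in 575349 bp (upper bound 0.643 per 100 kb), and the dachshund homologue Dach2, on chromosome X, had 2 peaks (0.373 per 100 kb). In genes of 100 to 500 kb the same list held 7.77 per 100 kb over 70 genes, of which 47 (67.1%) were dense, against 34.8% of all genes of that length.

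The 106 genes on the 5 neuronal lists did not stand above the very long genes as a whole. They held 2.56 peaks per 100 kb (2.46 to 2.66) with a median of 2.14, beside 2.87 and 2.41 over all 227 genes. Dense genes made up 17 of the 106 (16%, against 20.7% of all), and genes nearly without peaks 6 (5.66%, against 7.05% of all). Neuronal genes were therefore found at both ends of the ranking. On autosomes alone, 3 of 101 neuronal genes were nearly without peaks (2.97%), against 9 of all 216 autosomal genes (4.17%). In genes of 100 to 500 kb the neuronal lists held 4.40 per 100 kb and 45 of 131 genes (34.4%) were dense.

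Adhesion and cell surface proteins of the synapse formed the longest of these lists. Its 39 genes held 2.67 peaks per 100 kb with a median of 1.87, and 9 were dense. Tenm4, Dscam and Ptprn2 led it, followed by Kirrel3, an immunoglobulin adhesion protein, at 7.41 and Ntm, the GPI-anchored neurotrimin, with 67 peaks at 6.93. Nrxn3, a presynaptic adhesion protein, had 65 peaks at 4.04. Il1rapl1 and Il1rapl2, both on chromosome X, are relatives of the interleukin-1 receptor accessory protein that organise synapses. Il1rapl1 had 4 peaks in 1375012 bp (0.291 per 100 kb) and Il1rapl2 had 0 in 1278324 bp (upper bound 0.289). Lrrtm4, a leucine-rich repeat protein of the postsynaptic membrane, had 3 peaks (0.380 per 100 kb). The list thus spanned nearly the whole range of the 227 genes.

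Receptors and ion channels were lower as a group. Their 24 genes held 1.88 peaks per 100 kb with a median of 1.66, and 1 of them was dense, Cacna1c, the pore subunit of an L-type calcium channel, at 5.26. The ion channel gene Asic2, also dense at 5.16, was on no list and is not counted here. Dpp10, an auxiliary subunit of A-type potassium channels, had 7 peaks in 1513678 bp (0.463 per 100 kb), and the metabotropic glutamate receptor Grm8 had 4 (0.466). The 9 cadherins and catenins held 1.81 per 100 kb with a median of 0.891. None of the 9 was dense, and their highest value was the 4.91 of Ctnnd2, a catenin of dendrites. Pcdh11x, a protocadherin on chromosome X, had 1 peak (0.162 per 100 kb).

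Guidance factors and scaffolds lay closer to the whole set. The 11 axon guidance and growth factor genes held 2.94 peaks per 100 kb, and 3 were dense: Slit3, a secreted ligand of Robo receptors, at 7.86, the semaphorin Sema6d, and the receptor Robo1 at 5.21. The 23 scaffold and signalling genes held 3.17 per 100 kb, and 4 were dense: Kalrn, Magi1, the reelin adaptor Dab1 with 62 peaks at 5.52, and Ank2. The 5 RNA-binding protein genes, kept apart from the neuronal lists, held 3.22 per 100 kb, and 1 of them was dense, the splicing regulator Celf2.

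Genes placed on the non-neural lists held fewer peaks when pooled, but not on every list. The 19 genes on the 4 non-neural lists held 1.78 per 100 kb (1.58 to 1.98), below the interval of the neuronal lists. These pooled intervals leave out the spread between genes, which ran from 0 to 4.52 on the non-neural and from 0 to 8.94 on the neuronal lists. The medians were closer, 1.97 for the non-neural and 2.14 for the neuronal genes. On autosomes alone, 18 non-neural genes held 1.99 (1.77 to 2.23) and 101 neuronal genes 2.66 (2.56 to 2.77), with medians of 2.12 and 2.37. None of the 19 was dense, which allows a share of up to 15.8% (3 counts of the total), and 2 were nearly without peaks, Skint5 and Dmd. The 4 genes of muscle and the dystrophin complex held 0.907 per 100 kb and the 3 of cilia and sperm 1.44 (1.05 to 1.93). The 6 matrix and glycan genes held 2.30 (1.93 to 2.73) and the 6 epithelial, immune and secretory genes 2.47 (1.98 to 3.05), intervals that overlap that of the neuronal lists. Their medians, 2.42 and 2.64, lay above the neuronal median of 2.14. The last of these lists holds Sorcs3 at 4.52, the highest of the 19, and Sorcs1, sortilin-family receptors that are also known from neurons. Dmd, the longest gene of the 227 with 2390387 bp, had 10 peaks (0.419 per 100 kb, 0.201 to 0.770). The 20 genes of broadly used enzymes and trafficking proteins held 2.53 per 100 kb and 3 were dense, among them the oxidoreductase gene Wwox with 57 peaks at 6.26. The 59 genes on no list held 3.19 per 100 kb and 15 were dense, so dense genes were not confined to the lists.

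**Figure D2:**
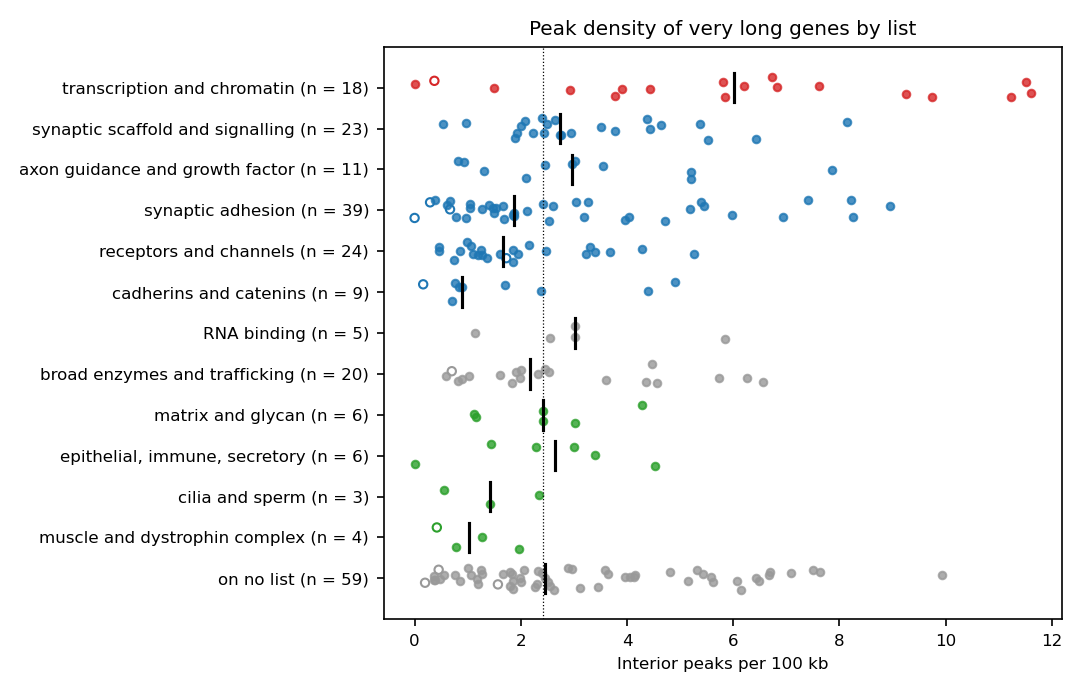
Interior peaks per 100 kb (horizontal axis) of each of the 227 genes by list (vertical axis, with the number of genes); filled points are autosomal genes, open points genes on chromosome X, black bars list medians and the dotted line the median of all genes, 2.41. The transcription and chromatin list has the highest median, 6.02, and the median of the cadherins and catenins is 0.891.

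The 16 genes nearly without peaks were 7 genes on chromosome X (Il1rapl2, Pcdh11x, Arhgap6, Il1rapl1, Dach2, Dmd and Frmpd4) and 9 on autosomes (Zfp804b, Skint5, A830018L16Rik, Iqcm, Lrrtm4, Cpq, Dpp10, Grm8 and Sugct). Chromosome X carried 11 of the 227 genes, and its long genes held 0.488 peaks per 100 kb (0.363 to 0.642), beside 3.0 for the 216 autosomal genes. None of the 11 was dense, which allows a share of up to 27.3%. Genes of 200 to 500 kb showed the same order, with 1.23 per 100 kb in 34 genes on X and 4.44 on autosomes. The part of X copy number and of embryo sex in this was not tested. 

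A gene with few interior peaks could still have an accessible end. A peak overlapped or lay within 1 kb of an end of 44 of the 47 dense genes (93.6%) and of 12 of the 16 genes nearly without peaks (75%), against 199 of all 227 (87.7%) and 1848 of 2200 genes of 100 to 500 kb (84%). The 4 genes nearly without peaks that had none at either end were Skint5, Iqcm, Dpp10 and Frmpd4. Dpp10 and Frmpd4, a scaffold that binds PSD-95, each had a peak on an internal RefSeq start instead, 2337 bp and 1531 bp wide. Of the 47 peaks inside the 16 genes, 4 lay on an internal start of the same gene, those of Dpp10, Frmpd4, Dmd and the GTPase-activating protein gene Arhgap6, and none lay near an end of another gene.

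**Figure D3:**
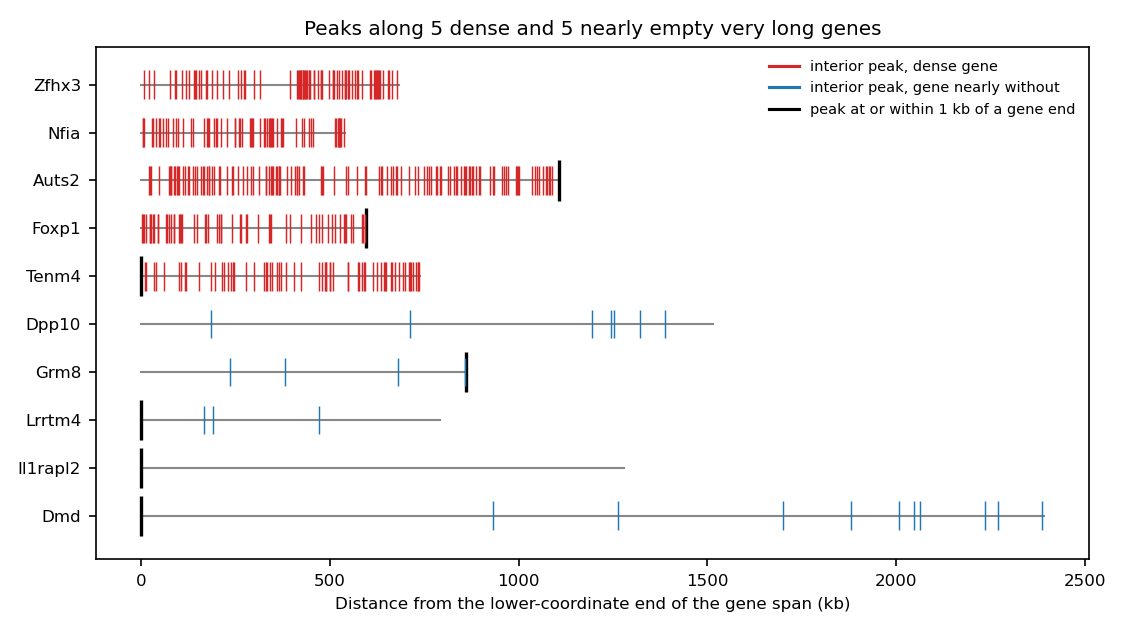
Peaks along 5 dense genes (red) and 5 genes nearly without peaks (blue), by distance in kb from the lower-coordinate end of each gene span (horizontal axis); black bars are peaks at or within 1 kb of a gene end. The 124 peaks of Auts2 run along its whole span, whereas Il1rapl2 shows a peak at its start and 0 interior peaks over 1278324 bp.

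Paralogous genes, which share ancestry and much of their protein sequence, differed widely in peaks in several families. Among the teneurins, Tenm4 had 8.94 peaks per 100 kb, Tenm2 had 5.45 and Tenm3 had 4.71, while Tenm1 on chromosome X had 0.667. Among the CUB and sushi domain proteins, Csmd2 had 5.18 (3.49 to 7.39), Csmd1 had 1.40 (0.889 to 2.10) and Csmd3 had 0.661 (0.285 to 1.30). Csmd2 thus lay above both others beyond counting error. The IgLON adhesion genes ranged from 6.93 in Ntm through 3.27 in Opcml and 2.52 in Negr1 to 2.41 in Lsamp.

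Among receptor-type phosphatases, Ptprg had 5.97 and Ptprm 5.40 peaks per 100 kb, and Ptprk had 2.11, Ptprd 1.68 and Ptprt 1.67. The related Ptprn2, above, was higher at 8.22. Nrg1, a ligand of ErbB receptors, had 2.96 (2.02 to 4.17) and Nrg3 had 0.814 (0.372 to 1.54). Among the alpha-catenins, Ctnna2 of the nervous system had 2.37 (1.55 to 3.48) and Ctnna3 had 0.891 (0.487 to 1.49). The intervals of the members did not overlap in either of these pairs.

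In other families the intervals of the members overlapped, and differences between members were not tested. Robo1 had 5.21 (3.90 to 6.81) and Robo2 had 3.03 (2.22 to 4.02), with intervals that overlapped only between 3.90 and 4.02. The contactins Cntn5 and Cntn4 had 1.5 and 1.27. The contactin-associated genes Cntnap2, Cntnap5b, Cntnap5a and Cntnap5c had 1.47, 0.977, 0.777 and 0.618. The intracellular fibroblast growth factor relatives Fgf12, Fgf13 and Fgf14 had 1.85, 1.73 and 0.856 per 100 kb.

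Interior density was then set beside the peaks within 500 kb outside either end of the same gene, leaving out 1 kb around protein-coding gene ends. The interior was denser than the flanks in 144 of 227 genes (63.4%) and sparser in 82. Over all genes the pooled density was 2.87 per 100 kb in interiors and 2.51 in flanks. For the transcription and chromatin list it was 6.31 in interiors and 3.15 in flanks, with the interior higher in 16 of 18 genes. For the synaptic adhesion list it was 2.67 and 1.95, higher in 31 of 39. For the receptors and channels the interior (1.88) and the flanks (1.83) were close, with the interior higher in 13 of 24. On the non-neural lists the interior (1.78) lay below the flanks (2.25), with the interior higher in 8 of 19.

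Dense genes lay in denser neighbourhoods. Interior and flank density went together over genes (Spearman's coefficient 0.714, n = 227; 0.685 over the 216 autosomal genes; 0.712 over the 101 autosomal neuronal genes). These are descriptions over genes that share 1 peak list, and neighbouring genes can share flank sequence. The flanks of the 47 dense genes held 4.05 peaks per 100 kb, those of the 16 genes nearly without peaks 0.709. The genes in both groups were chosen by their interiors, so the step from flank to interior within them is a description only. Single genes departed from the relation, such as Ptprt with 1.67 per 100 kb inside and 4.94 in its flanks.

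**Figure D4:**
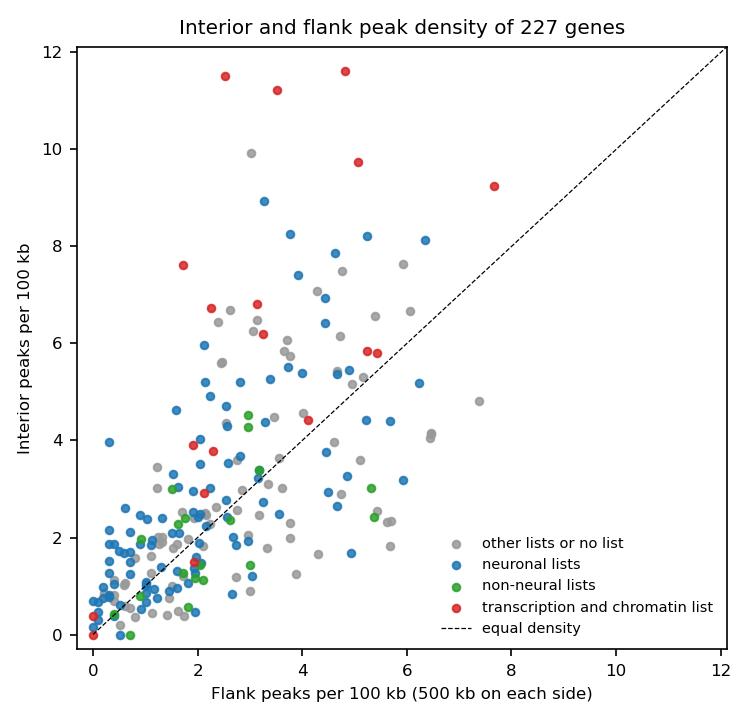
Interior peaks per 100 kb (vertical axis) against flank peaks per 100 kb within 500 kb on each side (horizontal axis) for 227 genes coloured by list; the dashed line marks equal density. 144 genes lie above the line, among them 16 of the 18 genes of the transcription and chromatin list.

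The spacing of peaks varied, and it was not compared with random placement at the same density. Neighbouring members of the same gene were separated by a median of 13534 bp, with quartiles of 4763 and 33880 bp. The longest stretch without a peak had a median of 66948 bp in dense genes, 9.92% of the interior, and of 460041 bp in genes nearly without peaks, 49.1% of the interior. In the genes between the limits it was 181244 bp, 23.0% of the interior. Dmd held a stretch of 930800 bp without a peak, and Dpp10 one of 526370 bp. The most peaks in any 100 kb window had a median of 13 in dense genes and 1 in genes nearly without peaks. The groups were set by peaks per 100 kb of the same interiors, so these differences between groups follow in part from their definition. In 17 of the 227 genes a single stretch without peaks took up 50% or more of the interior.

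In the 179 genes whose strand was known from the promoter table, peaks were somewhat more frequent toward the 3′ end of the gene. With the interior cut into 10 equal parts from the gene start, the last part held 13.2% of 4431 gene and peak pairs (12.2 to 14.2, exact binomial interval) and the first held 9.46%. Without Schip1, whose 34 peaks also lie in Iqschfp, the last part held 13.1% of 4397 distinct peaks. The share lay between 8.35% and 11.4% in the parts between. Single genes varied: the last part held more peaks than the first in 89 genes, fewer in 60 and as many in 30.

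**Figure D5:**
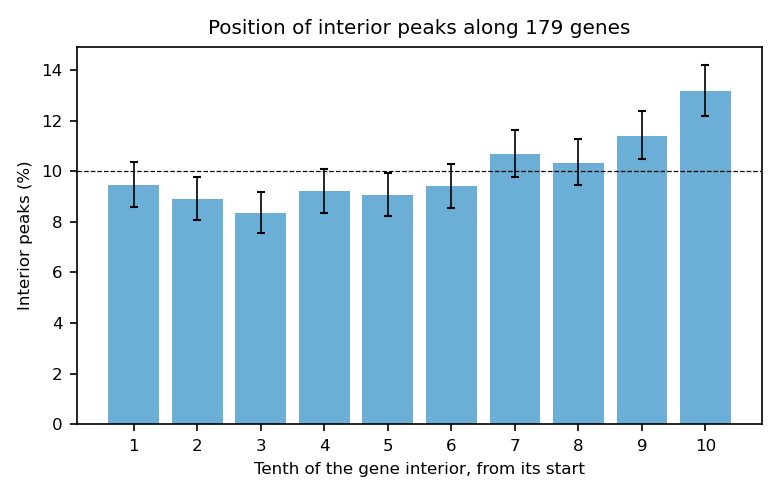
Share of interior peaks in percent (vertical axis) in each of 10 equal parts of the gene interior counted from the gene start (horizontal axis), over 179 genes and 4431 gene and peak pairs; bars are shares, error bars exact 95% binomial intervals and the dashed line an even 10%. The last part is the highest bar at 13.2%.

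Member peaks were close in median width to the other peaks away from gene ends. Their median was 474 bp, with quartiles of 312 and 756 bp, beside 490 bp for the other peaks away from gene ends. Peaks over 2 kb made up 3.29% of members and 3.77% (3.62 to 3.93) of those others. Of the members away from any gene end, which match those others more closely, 2.70% (2.27 to 3.17) were over 2 kb. That share was lower than among the others, and their median width was 470.5 bp. Widths went with density, with a median of 510 bp in dense genes, 458 bp between the limits and 358 bp in genes nearly without peaks. The widest member, 10670 bp inside Ptprn2 (chr12:117150654-117161324), lay near an end of another gene. In all, 182 members (3.36%) lay within 1 kb of an end of another annotated gene, 133 of them ends of long non-coding RNA genes.

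The start sequences printed above belong to a wider pattern. An outer start was listed among the RefSeq promoters for 137 of the 227 genes, and 132 of their 148 outer starts (89.2%) lay under a peak. Internal starts numbered 142 in 86 genes, and 102 of them (71.8%, 63.7 to 79.1, exact binomial interval) lay under a peak. Some of these were close to the gene start and under a peak at the gene end that is not a member. Examples are Foxp1, 1753 bp from the gene start, and Sox6, 2032 bp. They are included in the shares and CpG counts of internal starts. Neighbouring starts could also share 1 peak, as in Esrrg, whereas the interval treats starts as independent. The internal starts under a peak held a median of 11 CpG dinucleotides in 300 bases, and 52.9% held 10 or more, as did 5% of the internal starts without a peak, whose median was 3. Of all 32851 RefSeq promoter windows of the same length, 43.5% held 10 or more. The CpG is its own reverse complement, so both strands give the same count. Peaks on internal starts were wide, with a median of 2024 bp against 468 bp for members off them. They made up few of the members, 82 of 4397 (1.86%) in the genes with known strand, 30 of 1973 (1.52%) in dense genes and 4 of 42 (9.52%, 2.66 to 22.6) in genes nearly without peaks. Annotated internal promoters therefore accounted for a small share of the interior peaks in dense genes.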

How the data were processed

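Single-nucleus ATAC-seq peaks of 2 WT E14.5 striatum libraries were analysed. The authors deposited 1 list of peak positions, given as other values (chromosome, start and end in base pairs) with no counts. Per the submitters' processing notes, Cell Ranger ATAC 1.2.0, Signac and the mm10 build were used; which tool called the peaks, and whether on pooled libraries, is not known here. Whether starts count from 0 or 1 is not stated either, so peak positions are printed as deposited.

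Gene spans came from the RefSeq table of GRCm38.p6, from which 402 of 49997 entries were left out because they lie on scaffolds. Strand and promoter sequence came from RefSeq promoters of the same build, which matched 179 of 227 genes. Members were counted with Python 3.11.15, pandas 2.3.3, numpy 2.4.6 and scipy 1.17.1, and the counting was tested on simulated peaks. A peak inside several overlapping genes counted once in the total and once for each gene. 70 members did so, inside Gm37013, Gm38666 and Gm38667, or inside Iqschfp and Schip1. Intervals are exact Poisson for densities and exact Clopper-Pearson for shares, both at 95%. For a count of 0 dense genes, the share it allows is instead an approximate bound, 3 divided by the number of genes.

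The members, the 12 role lists and the alternatives were chosen with earlier results of these data known. Named genes were the 10 densest, the 10 sparsest, the 10 with most peaks, up to 2 densest and 2 sparsest of each list, all members of the paralog families, and genes just inside and outside each limit; some of these are not reported here. Genes that complete a count were named after their values were seen.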

Additional observations from a re-analysis of the deposited data

How the results depend on the processing

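A summary value (a count, median or pooled ratio) was compared with an alternative 97 times, over 13 alternatives. Of these comparisons, 75 stayed within the tolerance set for them and 22 moved. A change of direction was defined for the pooled ratios only, and none of them showed it. With genes from 400 kb, which takes in more genes, there were 81 dense genes, 28 nearly without peaks, 18 dense genes on the transcription and chromatin list and 225 genes denser than their flanks. With genes from 750 kb, which leaves fewer genes, there were 3035 members, 15 dense genes, 8 nearly without, 5 dense on the transcription list and 70 denser than their flanks, and the pooled density of the transcription list was 2.76 times that of all genes, beside 2.20 in the report. Keeping only peaks wider than the median of all peaks, in place of a stricter score, left 2091 members, a median density of 0.843, 3 dense genes (all on the transcription list, so 3 there too) and 83 nearly without. The pooled density over that of all genes was then 2.75 for the transcription list and 0.843 for the neuronal lists, beside 0.892 in the report. Under the same choice the densities of 81 of the 91 named genes moved, whereas 1 moved with a 10 kb margin at gene ends and 1 with peaks under 1 kb apart joined. The width choice only removes peaks, and the limits of 5 and 0.5 and the tolerances were kept. Lower densities, fewer dense genes and more genes nearly without peaks therefore follow from the choice itself. Without chromosome X, 9 genes were nearly without peaks. With limits of 4 and 1 in place of 5 and 0.5, 65 were dense and 41 nearly without. With covered bases in place of peak numbers, the ratio to all genes was 2.68 for the transcription list, 0.842 for the neuronal lists and 0.525 for the non-neural lists, beside 0.620 in the report; the cause was not tested. Keeping 1 gene of each overlapping set, and leaving out Schip1 from positions, were chosen after seeing the data. No paired analysis was possible because the file holds 1 peak list with no column for either library, and for the same reason no library could be left out. With no counts or scores, depth could not be used to weigh any peak, and a gene without a peak is a gene in which none was called at a depth that is unknown.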

Other observations

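Gene spans of 500 kb or more that do not encode a protein in the RefSeq table were counted in the same way. The immunoglobulin loci among them had few peaks. The immunoglobulin heavy chain locus Igh had 1 peak in 2751187 bp (0.0364 per 100 kb) and the kappa light chain locus Igk had 3 in 3171119 bp (0.0947). The T cell receptor loci Tcra and Tcrb had 0.836 and 0.601 per 100 kb. All 4 are antigen receptor loci, which are rearranged and used in lymphocytes. Among the long non-coding RNA genes, 5730522E02Rik had 3.55 peaks per 100 kb, Gm32647 had 1.79, 1700019L22Rik had 1.0, Snhg14, the host of many small nucleolar RNAs, had 0.851 and Gm20754 had 0.760.

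MicroRNA genes also lay inside the very long genes. Of 37 such genes, 4 had a deposited peak within 1 kb: Mir153 in Ptprn2, with a peak of 2325 bp, Mir1904 in Pde4d (2195 bp), Mir3108 in Zfhx3 (1846 bp) and Mir7656 in Slc9a9 (880 bp). Mir873a and Mir873b, both in Lingo2, are counted separately but have the same coordinates. The share was not compared with windows placed elsewhere in these genes, so whether it differs from their general peak density was not tested.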
